A study of Rattus norvegicus with 10 samples.

Results

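The miR-23, miR-24 and miR-27 microRNAs are made from 2 paralogous clusters, and 5 array probes carried their rat names: rno-miR-23a, rno-miR-23b, rno-miR-24, rno-miR-27a and rno-miR-27b. They were chosen by name, out of 237 rat miRNA probes and 1107 probes in all, and no star or locus-suffixed form was found. The levels come from collateral vessels, the bypass arteries that widen when a main artery is closed, of 5 male rats of the strain given as Spraque-Dawley, with no age in the labels. In the shunt leg of each animal the femoral artery was ligated and an arteriovenous shunt made, a link between artery and vein that raises flow and fluid shear stress in the collaterals (5 RNAs), and the control leg had a sham operation (5 RNAs). The labels state no interval between surgery and sampling. Total RNA of each leg was read on 2 of 10 two-colour arrays, once with the dye AF665 and once with AF546, so every member has 20 readings of 3 spots each. The comparison asks whether the clusters' miRNAs differ between growing and quiescent collaterals.

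A miRNA silences messenger RNAs that pair with its seed, bases 2 to 8 from its 5′ end, and each cluster is cut from 1 primary transcript that yields a miR-23, a miR-27 and a miR-24. In mouse and human endothelial cells miR-23 and miR-27 are known to favour sprouting by silencing inhibitors of vessel growth such as Sprouty2 and Semaphorin 6A. miR-24 is known from mouse hearts after infarction to restrain endothelial survival, and miR-23b from human endothelial cells as a miRNA that responds to flow.

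The mature sequences are shown because they set which members could share targets and which probes could share signal. They are RefSeq's, placed on the rat build GRCr8, all on the minus strand, written 5′ to 3′ with the seed in capitals. All 5 names matched the 3p arm of a RefSeq entry, which older names without an arm denote. miR-23a lies at chr19:40859778-40859798, miR-27a at chr19:40859614-40859634, miR-23b at chr17:1819405-1819425 and miR-27b at chr17:1819163-1819183. miR-24 comes from 2 loci, Mir24-2 with its mature arm at chr19:40859481-40859502 and Mir24-1 at chr17:1818672-1818693.
miR-23a: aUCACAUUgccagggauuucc
miR-23b: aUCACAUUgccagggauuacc
miR-27a: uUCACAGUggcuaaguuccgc
miR-27b: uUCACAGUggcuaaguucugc
miR-24: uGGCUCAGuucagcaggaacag

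miR-23a and miR-23b have the same seed and differ at 1 of 21 bases (U19A, counted from the 5′ end, miR-23a first). miR-27a and miR-27b also share their seed and differ at 1 of 21 bases (C19U, miR-27a first). The seeds of miR-23a and miR-27a are the same at 6 of 7 positions, while miR-24 has a seed of its own. The labels and files used here give no probe sequences, and signal shared between the a and b probes of a pair was not tested. The hairpins Mir23a, Mir27a and Mir24-2 span 389 bases on chromosome 19 (40859455 to 40859843) and overlap no other gene of the RefSeq table. Mir23b, Mir27b and Mir24-1 span 814 bases on chromosome 17 (1818669 to 1819482), inside a region where RefSeq also places the protein-coding genes Aopep and Fancc and the miRNA gene Mir3074.

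The hairpins of the 2 miR-24 loci are shown because both give the identical mature arm, in capitals, from unlike flanks. The miR-24 probe therefore adds the output of both clusters and cannot tell them apart, whereas the miR-23 and miR-27 probes are named for 1 cluster each.
Mir24-2: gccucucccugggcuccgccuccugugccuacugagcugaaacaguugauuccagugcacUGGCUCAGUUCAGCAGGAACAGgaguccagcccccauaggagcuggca
Mir24-1: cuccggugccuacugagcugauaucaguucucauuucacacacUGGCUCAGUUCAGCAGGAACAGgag

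All 5 probes gave signal above background in most readings of both legs, and none of the 5 passed the test between shunt and control. The largest fitted difference was that of miR-23a, 1.15-fold higher in shunt (95% interval 0.957 to 1.38), and the miR-27a level was 0.935 of control (0.809 to 1.08). The other 3 fitted ratios of shunt to control were 1.02 for miR-23b, 1.01 for miR-24 and 0.981 for miR-27b. Levels are normalized log2 intensities, and because probes differ in how brightly they bind, no probe's level is set against another's as an amount.

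Before the members, the whole series needs a few facts. Rat miRNAs above local background numbered 36.5 to 84.5 per control RNA and 72.5 to 102 per shunt RNA, as means of the 2 readings. A rat miRNA was kept and tested when 0.5 or more of the readings of either group were above background, which left 93. All 5 members were kept, and each cleared this limit in both groups. The median fitted difference of these 93 was 0.12 log2 above control. The rule lets a miRNA in through 1 group alone, and without it the median over 237 rat miRNAs was 0.020 log2. Of the 10 arrays, 4 held control RNA only, 4 shunt RNA only and 2 both, so much of the comparison lies between arrays. RNAs on neighbouring arrays share an array, and the 2 channels of a spot correlated by 0.25, so the p-values below may be too small. The smooth muscle markers miR-143 and miR-145 and the endothelial marker miR-126 were kept, while miR-126*, the other endothelial marker, was not.

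miR-23a, from the cluster on chromosome 19, read 7.97, 8.08, 7.69, 7.87 and 7.60 log2 in the control legs of animals 1 to 5. In their shunt legs it read 7.98, 8.29, 8.20, 7.95 and 7.81. The shunt value was the higher one in 5 of 5 animals, but in animal 1 by only 0.0040 log2, and the groups overlapped. In the limma fit over all 93 miRNAs the difference was 0.20 log2 (SE 0.12, 95% interval -0.063 to 0.47), from 7.84 ± 0.20 in control to 8.04 ± 0.20 in shunt (SD, n = 5 each), with an adjusted p of 0.294. Of the 93 tested miRNAs, 14% were higher in the shunt leg of all 5 animals, which the members' 1 of 5 is to be read against. The excess of miR-23a over the median of the kept miRNAs was 0.083 log2.

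miR-23b, the paralogue with the same seed, read 7.84, 7.76, 7.43, 7.91 and 7.53 in control legs. It read 7.53, 7.95, 7.92, 7.62 and 7.63 in shunt legs. Shunt was higher in 3 animals and lower in animals 1 and 4, and the groups overlapped. Group means were 7.69 ± 0.20 and 7.73 ± 0.19 (SD, n = 5 each), a difference of 0.035 log2 (SE 0.12, 95% interval -0.23 to 0.30, limma adjusted p = 0.904).

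miR-24, made by both clusters, read 8.40, 8.43, 7.84, 8.75 and 8.36 in control legs. In shunt legs the values were 8.51, 8.48, 8.41, 8.20 and 8.26. The control legs of animals 3 and 4 were the lowest and the highest of all 10 RNAs, and the 5 shunt values lay between them. The difference was 0.020 log2 (SE 0.15, 95% interval -0.30 to 0.35, limma adjusted p = 0.967), with means of 8.35 ± 0.33 in control and 8.37 ± 0.14 in shunt (SD, n = 5 each). This interval is the widest of the 5 members.

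miR-27a, which sits between miR-23a and miR-24 in the chromosome 19 cluster, read 6.66, 6.85, 6.43, 6.54 and 6.53 in control legs. It read 6.33, 6.58, 6.64, 6.47 and 6.52 in shunt legs. Only animal 3 had the higher value in its shunt leg, and the groups overlapped. The difference was -0.098 log2 (SE 0.095, 95% interval -0.31 to 0.11, limma adjusted p = 0.501), from 6.60 ± 0.16 in control to 6.51 ± 0.12 in shunt (SD, n = 5 each). Against the median of the kept miRNAs it stood at -0.22 log2.

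miR-27b, its counterpart on chromosome 17, read 6.98, 7.09, 6.71, 7.01 and 6.80 in control legs. Shunt legs gave 6.69, 7.10, 7.08, 6.81 and 6.77. Shunt was higher in animals 2 and 3, in animal 2 by only 0.017 log2, and the groups overlapped. The difference was -0.028 log2 (SE 0.11, 95% interval -0.27 to 0.21, limma adjusted p = 0.924), with means of 6.92 ± 0.16 and 6.89 ± 0.19 (SD, n = 5 each).

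**Figure D1:**
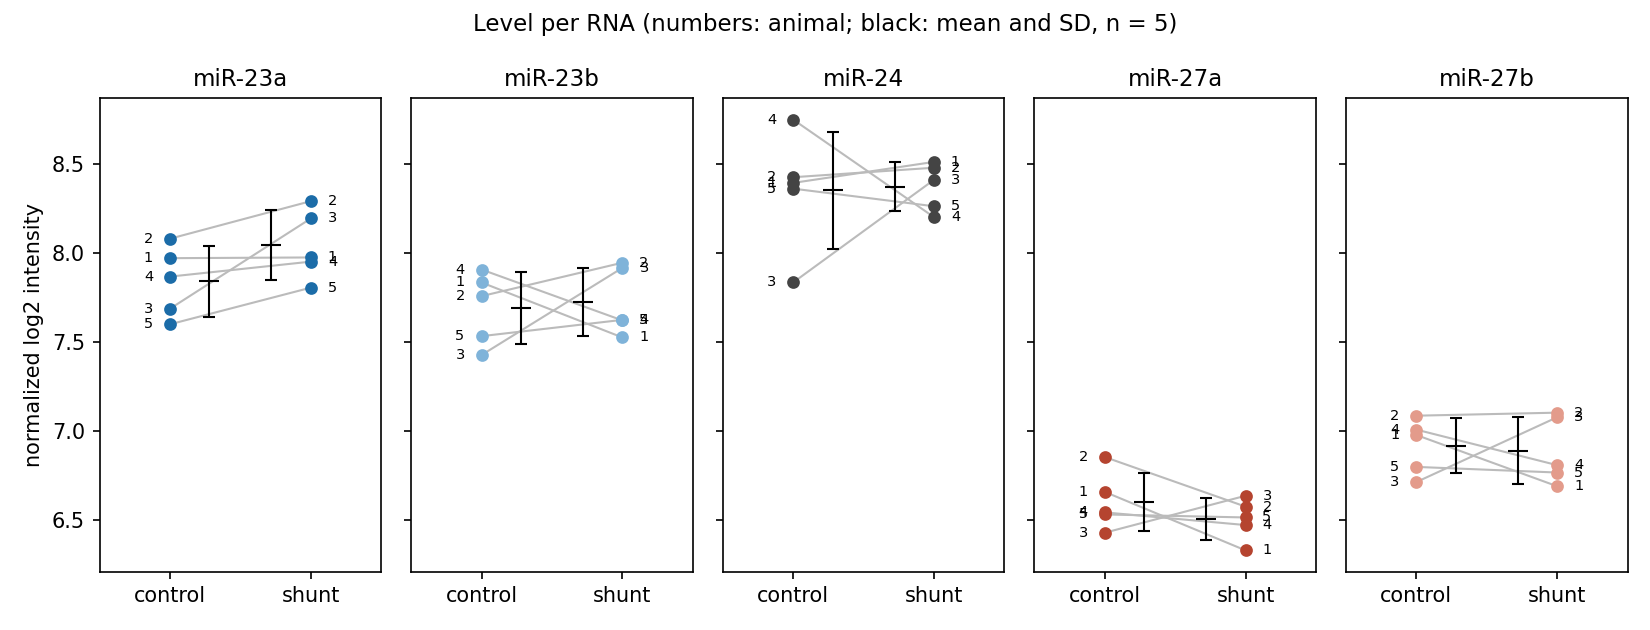
Normalized log2 intensity (y axis) of each member in the control and shunt RNA of animals 1 to 5, with lines joining the legs of an animal and black bars giving the mean and SD of 5 RNAs. The groups overlap for all 5 members; the miR-23a line rises in each animal, though by only 0.0040 in animal 1, and the miR-24 lines cross, with control 3 lowest and control 4 highest.

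Of the 93 miRNAs, 1 passed at an adjusted p under 0.05 (1.08%), miR-21, which was higher in shunt, and 0 passed in the lower direction (0%), where 2 had an unadjusted p under 0.05. miR-21 was above background in 0 of 10 control and 8 of 10 shunt readings. It was thus kept through shunt alone, and its control level is not a measured amount. Both legs come from 1 animal, and with the animal as a fixed block 0 passed in limma (smallest adjusted p = 0.126, 13 at an unadjusted p under 0.05). Among the members 0 of 5 passed, and 0 of 5 had an unadjusted p under 0.05, against 19.4% of the kept miRNAs. Control and shunt values overlapped for all 5 members, and 5.38% of the kept miRNAs had groups that did not overlap. The fitted difference was above 0 for 3 of 5 members and for 72% of the kept miRNAs. That share includes miRNAs kept through shunt alone, as miR-21 was, so it may depend on the filter, and the share over all 237 rat miRNAs is not given here. The members' median was 0.020 log2 beside 0.12 for all 93, and only miR-23a lay above 0.12. With no miRNA filtered out, the median over 237 rat miRNAs was also 0.020 log2, so the gap to 0.12 depends on the filter. Per RNA, the members' median level was 7.68 ± 0.19 in control and 7.73 ± 0.19 in shunt (SD, n = 5 each). That median was the miR-23a level in control 4 and the miR-23b level in every other RNA, so it largely repeats miR-23b. In a bulk vessel sample, fewer cells of a type and less of the miRNA per cell cannot be told apart.

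**Figure D2:**
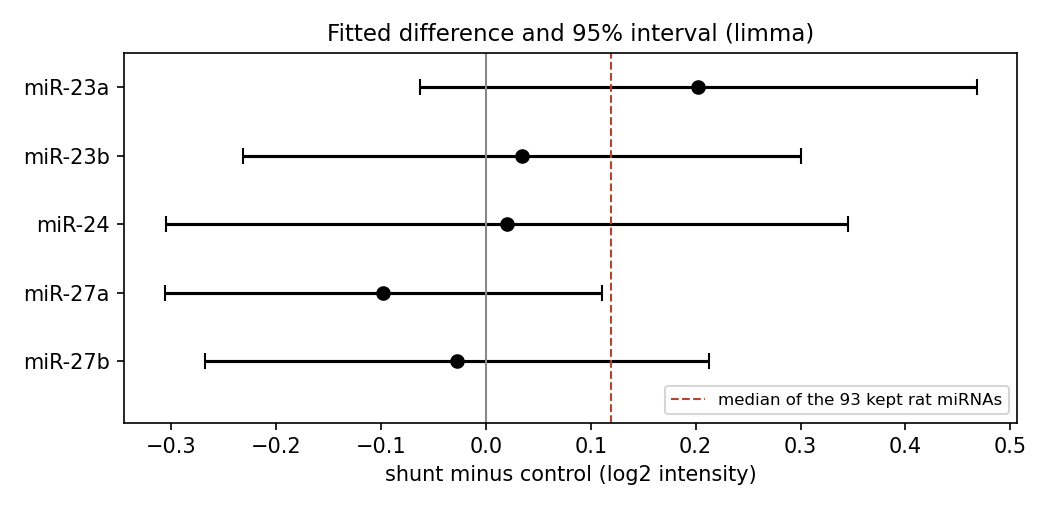
Fitted shunt minus control difference (x axis, log2 intensity) of each member with its 95% interval from limma, n = 5 RNAs per group; the dashed line marks the median of the 93 kept rat miRNAs, 0.12. All 5 intervals include 0, and the interval of miR-27a ends at 0.11, just under the dashed line. That line depends on the filter, as the median over all 237 rat miRNAs was 0.020, and no member was tested against it.

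The differences between the legs were unlike in the 5 animals. In animal 3 all 5 were higher in shunt, by 0.51 for miR-23a, 0.49 for miR-23b, 0.58 for miR-24, 0.21 for miR-27a and 0.36 for miR-27b on the log2 scale. Animal 4 went the other way for 4 of them, with -0.55 for miR-24, -0.29 for miR-23b, -0.20 for miR-27b and -0.071 for miR-27a, beside 0.084 for miR-23a. In animal 1 miR-23b, miR-27a and miR-27b read lower in shunt by -0.31, -0.33 and -0.29 log2, while miR-24 read 0.12 higher. The median differences of the kept miRNAs in animals 1 to 5 were 0.12, 0.19, 0.30, -0.036 and 0.033, so animals 3 and 4 also had the highest and lowest median over all kept miRNAs.

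The 2 arrays that held both groups compare shunt and control within a spot, although between animals. On the array with shunt 1 in AF546 and control 5 in AF665, shunt minus control was -0.14 for miR-23a, -0.29 for miR-23b, 0.16 for miR-24, -0.087 for miR-27a and -0.35 for miR-27b log2. On the array with shunt 5 in AF665 and control 1 in AF546 it was -0.15, -0.27, -0.24, -0.12 and -0.031 in the same order. Thus 4 of 5 members read lower in shunt on both arrays, all but miR-24, where 14% of the kept miRNAs did. On a single array the groups also differ in dye, and these differences were not corrected for it. AF665 minus AF546 readings of the same RNA averaged 0.19 log2 for miR-23a and -0.11 for miR-27a. Averaged over both arrays, which have the dyes swapped, the differences were -0.14 for miR-23a, -0.28 for miR-23b, -0.036 for miR-24, -0.10 for miR-27a and -0.19 for miR-27b. The shunt readings of miR-27a on both arrays, and of miR-27b on the array with shunt 5, were not above background. The kept miRNAs had medians of -0.0062 and 0.087 on these arrays. miR-23a, higher in shunt in every within-animal pair, was lower in shunt on both arrays, and these 2 differences were not tested.

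The authors' deposited table gives a fold and a p-value for each animal, and in animal 2 its values for miR-23a, miR-23b, miR-24 and miR-27b lay far from the levels normalized here. In animal 2 the authors' deposited table has miR-24 6.01-fold higher in shunt (authors' p = 3.55e-05), miR-23a 5.20-fold (1.48e-04) and miR-23b 4.15-fold (7.83e-04). The authors' deposited table lists miR-27b at 2.26-fold (authors' p = 0.0563) and miR-27a at 1.24-fold (0.672) in that animal. By that table, 3 of 5 members had a p under 0.05 in animal 2, where 43% of the kept miRNAs did, all of them higher in shunt. The median of the kept miRNAs in animal 2 was 0.74 log2 in the authors' deposited table, and miR-24, miR-23a and miR-23b lay above 86%, 82.8% and 79.6% of them. Normalized here, animal 2 differed by 0.053 log2 for miR-24, 0.21 for miR-23a and 0.19 for miR-23b.

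Animal 3 was the other one in which a member had a p under 0.05 in the authors' deposited table. In the authors' deposited table miR-24 was 2.41-fold higher there (authors' p = 0.0132) and miR-23a 2.20-fold (0.0162), so 2 of 5 members passed, beside 19.4% of the kept miRNAs, again all higher in shunt. In animals 1, 4 and 5 the authors' deposited table has a p under 0.05 for 0 of 5 members, against 3.23%, 3.23% and 2.15% of the kept miRNAs. The authors' deposited table has all 5 members lower in shunt in animal 4, by -0.50 for miR-23a, -0.92 for miR-23b, -1.25 for miR-24, -0.29 for miR-27a and -0.66 for miR-27b log2, and 0% of the kept miRNAs passed upwards there. In animal 1 miR-24 was higher (0.14 log2) and the other 4 lower, and in animal 5 miR-23a was higher (0.031 log2) and the other 4 lower, per the authors' deposited table, with 3.23% and 1.08% of the kept miRNAs passing upwards. The animals therefore disagreed in direction for each member in that table, as miR-24 alone ran from -1.25 to 2.59 log2.

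**Figure D3:**
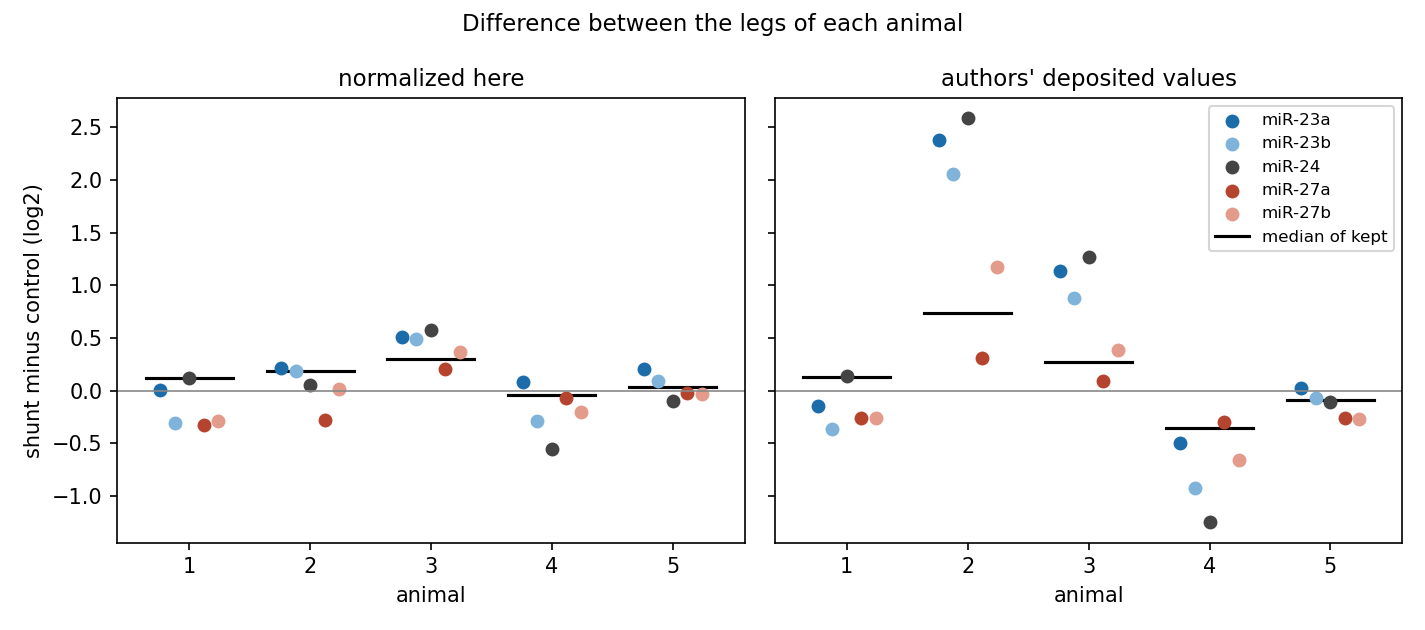
Shunt minus control (y axis, log2) of each member in animals 1 to 5 (x axis), normalized here on the left and in the authors' deposited values on the right; horizontal black lines give the median of the 93 kept miRNAs. In the deposited values animal 2 holds miR-24, miR-23a and miR-23b at 2.59, 2.38 and 2.05, where the left panel has 0.053, 0.21 and 0.19.

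The scanner signals behind animal 2 show how far apart its legs were before normalization. The miR-24 spots read 61.3 and 134 intensity units over background in control 2 and 1011 and 1119 in shunt 2, in AF665 and AF546. miR-23a read 69 and 91.3 in control 2 and 831 and 727 in shunt 2. The median of the kept miRNAs also differed, being 8.33 and 30 in control 2 and 90 and 118 in shunt 2. Control 2 was also the RNA with the fewest rat miRNAs above background (36.5) and shunt 2 the one with the most (102). Over all features the deposited values were centred near 0, with medians of 0.078 in control 2 and -0.123 in shunt 2. The part of the difference between these readings in the deposited folds was not tested beyond the median given above.

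No reading of any member had saturated pixels. miR-23a, miR-23b and miR-24 were above background in 10 of 10 control and 10 of 10 shunt readings, with median net intensities of 201, 145.3 and 268. miR-27a was above background in 9 control and 8 shunt readings at a median net intensity of 37.8, and miR-27b in 8 and 9 readings at 68. The offset of 50 added before taking logs exceeds the median signal of miR-27a, so the size of its fitted fold depends on the offset. With an offset of 0 the miR-27a difference was -0.39 log2 (SE 0.24, limma adjusted p = 0.330), in place of -0.098 (SE 0.095). The SE of the other members rose too, so the intervals given above also depend on the offset. With an offset of 0 the differences were 0.21 for miR-23a (SE 0.22), -0.011 for miR-23b (SE 0.22), -0.040 for miR-24 (SE 0.23) and -0.15 for miR-27b (SE 0.24). The sign of miR-27a turned in 2 other settings, given below, and the part of noise in these values was not tested. AF665 minus AF546 readings of the same RNA averaged 0.19 ± 0.28 for miR-23a, 0.20 ± 0.19 for miR-23b, -0.045 ± 0.31 for miR-24, -0.11 ± 0.16 for miR-27a and 0.17 ± 0.22 for miR-27b log2 (SD, n = 10). The widest gap between the 2 readings of an RNA was 0.77 log2, for miR-24 in control 2, and so exceeded every member's difference between group means. Each RNA was read once in each dye, so in the levels averaged per RNA a dye offset of a probe falls equally on both groups. On a single array it does not.

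Members of 1 cluster leave 1 primary transcript, so the ratio of 2 members within an RNA shows whether they moved apart. Probes bind with unlike strength, hence the change of a ratio between legs is read here and not its size. The offset of 50 weighs more on a dim probe than on a bright one, so such a change can still depend on probe strength. The log2 ratio of miR-23a to miR-23b, which share the seed but not the cluster, was 0.14, 0.32, 0.26, -0.040 and 0.067 in control legs 1 to 5 and 0.45, 0.35, 0.28, 0.33 and 0.18 in shunt legs. It was the higher in the shunt leg of all 5 animals, with means of 0.15 ± 0.15 and 0.32 ± 0.098 (SD, n = 5 each) and overlapping groups. This change of 0.17 log2 stayed above 0 in 31 of 31 other settings and leave-outs able to alter it, from 0.047 with the arrays read as ratios only to 0.26 without between-array normalization. The pair was singled out after its values were seen and has no test.

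Within the chromosome 19 cluster, the log2 ratio of miR-23a to miR-27a was 1.24 ± 0.10 (1.07 to 1.33) in control and 1.54 ± 0.16 (1.29 to 1.72) in shunt RNAs (SD, n = 5 each). It too was the higher in the shunt leg of all 5 animals, and it was also singled out afterwards. This change of 0.30 log2 depended on how the loop was read, as it was -0.37 with ratios only and -0.039 on the 2 arrays that held both groups, and above 0 in 29 of the 31 settings and leave-outs able to alter it. Its size depended on the offset, as it was 0.60 with an offset of 0. The median net intensity of miR-27a, 37.8, lies below the offset of 50. For miR-27a to miR-27b, the other pair with a common seed, the ratio was -0.31 ± 0.090 in control and -0.38 ± 0.10 in shunt (SD, n = 5 each), higher in shunt in 2 of 5 animals. In the chromosome 17 cluster the log2 ratio of miR-23b to miR-27b had the narrowest spread among shunt RNAs of the 8 pairs computed, 0.84 ± 0.016, beside 0.78 ± 0.098 in control (SD, n = 5 each).

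**Figure D4:**
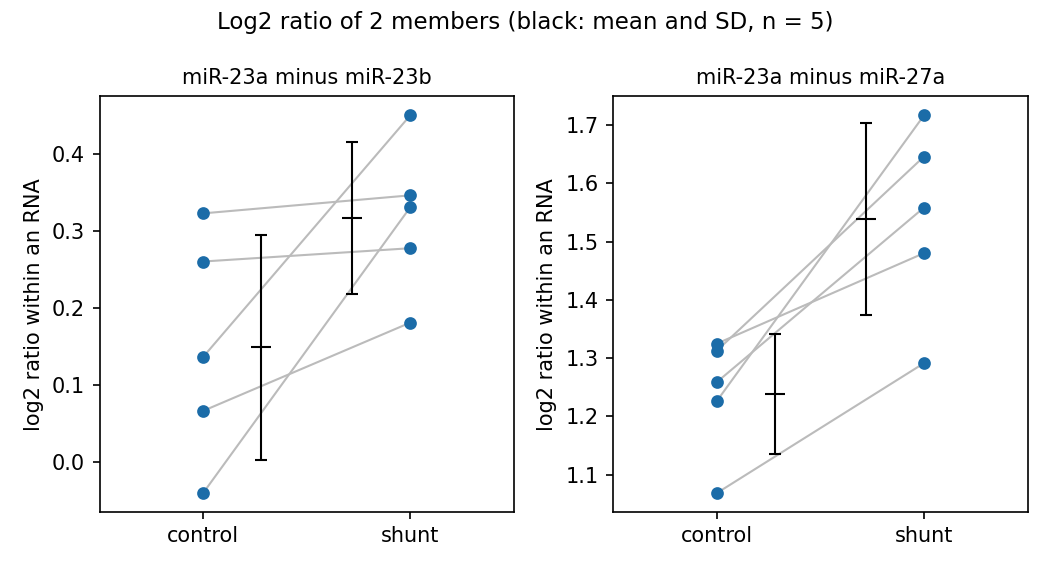
Log2 ratio within an RNA (y axis) of miR-23a to miR-23b on the left and of miR-23a to miR-27a on the right, for the control and shunt RNA of 5 animals joined by lines, with black bars for the mean and SD. Both ratios were higher in the shunt leg of each animal while the groups overlapped; the right-hand ratio turned below 0 in change when the arrays were read as ratios only.

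As a description over the 10 RNAs, which fall into 2 groups and share arrays, Pearson's r of the levels was 0.92 for miR-23b with miR-27b, 0.80 for miR-27a with miR-27b and 0.74 for miR-23a with miR-23b. It was lower for the 2 chromosome 19 neighbours miR-23a and miR-27a (0.40). miR-24 had r of 0.66 with miR-23b, 0.53 with miR-27b, 0.41 with miR-23a and 0.24 with miR-27a. In the deposited values, where the medians of the kept miRNAs per RNA ran from -0.30 to 0.60, these pairs had r of 0.706 (miR-27a with miR-24) to 0.978 (miR-23b with miR-24).

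The kept miRNAs outside the clusters with the most similar pattern over the 10 RNAs, the 3 highest Pearson r among 88, were found for each member. For miR-23a they were miR-100 (r = 0.85), miR-10a (0.84) and miR-199a (0.81), and for miR-23b miR-16 (0.85), miR-99a (0.83) and miR-352 (0.80). miR-24 was most like miR-143 (0.79), an abundant smooth muscle miRNA, followed by miR-151 (0.75) and miR-497 (0.74). Of these, miR-100, miR-10a, miR-199a, miR-352 and miR-497 were above background in only 0, 1, 4, 3 and 3 of 10 control readings. They were kept through shunt alone, and control values near background limit what their r can show. Both miR-27 members had miR-30d among their 3, with r of 0.84 for miR-27a and 0.79 for miR-27b. The others were miR-29a (0.72) and miR-150 (0.67) for miR-27a and miR-99a (0.89) and miR-16 (0.84) for miR-27b. The median r over the 88 was 0.39 for miR-23a, 0.43 for miR-23b, 0.34 for miR-24, -0.046 for miR-27a and 0.27 for miR-27b, so miR-27a followed the bulk of the miRNAs least.

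Other miRNAs linked to vessel growth were counted in the same fit; miR-221 and miR-222 stand in both lists. Of the angiogenesis list, 13 of 20 on the array were kept, 9 with a fitted difference above 0 and 4 below, and 0 passed in limma, with 4 higher and 0 lower at an unadjusted p under 0.05 (median 0.11 log2, beside 0.12 for all kept). Its brightest probes were let-7b (0.31 log2, limma adjusted p = 0.294) and let-7f (0.44, adjusted p = 0.213). Of the smooth muscle phenotype list, 14 of 17 were kept, 11 above 0 and 3 below, and 1 passed, the injury-responsive miR-21 (median 0.13 log2). At an unadjusted p under 0.05 there were 4 higher and 2 lower in this list, the 2 lower being miR-145 and miR-29a. Over all kept miRNAs, 72% were above 0, 1.08% passed and 19.4% had an unadjusted p under 0.05. These shares include miRNAs kept through shunt alone. The pass of miR-21 is lost with the animal as a fixed block, as given above, whereas 1 miRNA passed in limma with the animal as a random block (smallest adjusted p = 0.0489). As given above, miR-21 was above background in no control reading. Its brightest probes were let-7d (0.60 log2, limma adjusted p = 0.182) and miR-143 (0.046, adjusted p = 0.967).

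Markers of the cell types a vessel sample can hold were read beside these results. The summed linear signal of miR-143 and miR-145 was 375 to 817 in control and 398 to 748 in shunt RNAs, and that of miR-126 was 170 to 256 and 172 to 232. Such sums follow the brighter probes, and miR-145 by itself read lower in the shunt leg of all 5 animals, with a difference of -0.26 log2 (SE 0.11, limma adjusted p = 0.235). For striated muscle 4 of 6 markers were kept (miR-1, miR-133a, miR-133b and miR-206), all 4 with fitted differences above 0 (72% of the kept miRNAs had one), and their sum was 345 to 527 in control and 440 to 734 in shunt RNAs. miR-208 and miR-499 were not kept. For leukocytes 2 of 5 markers were kept (miR-146 and miR-150; 165 to 266 in control, 219 to 272 in shunt), while miR-223, miR-142-5p and miR-142-3p were not kept. Epithelial markers were kept in 3 of 6 cases (197 to 225 and 214 to 260), and 0 of 2 red cell and 0 of 4 nerve markers were kept. The part of such cells in the members' levels was not tested.

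**Figure D5:**
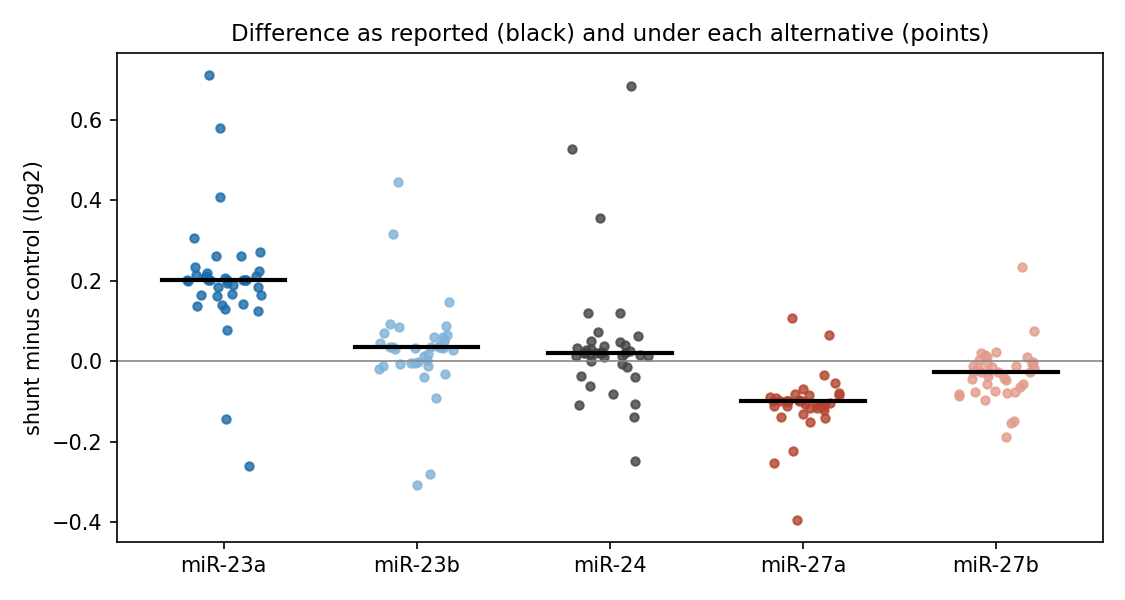
Shunt minus control difference (y axis, log2) of each member as reported (black line) and under each other setting or with an RNA or array left out (points). The points of miR-23b, miR-24 and miR-27b lie on both sides of 0, those of miR-23a run from -0.26 to 0.71 and those of miR-27a from -0.39, with an offset of 0, to 0.11.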

How the data were processed

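Per the file headers, the deposited scanner files hold foreground and background intensity per spot and the percent of saturated pixels, without normalization. The authors' deposited value table holds log2 levels centred near 0 with an unstated normalization, and their collapsed table a signed fold (a score) and a p-value per animal from an unstated test. For the folds, the sign's direction was taken from the value table. RNA was labelled directly (NCode Rapid system), per the labels' protocols, and no aligner or build applies.

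Intensities were corrected by normexp (offset 50, mean foreground, median background), then normalized by loess (span 0.3, 4 iterations) and Aquantile, and averaged over the 3 spots of a probe and then over both readings of an RNA. The tools were limma 3.58.1 and statmod 1.5.0 under R 4.3.3. A reading was above background when at least 2 of 3 spots exceeded the local background by 2 SD. Shunt was compared with control by lmFit and eBayes over 93 kept miRNAs, two-sided, Benjamini-Hochberg adjusted at 0.05, without the animal as a block. Whether the legs' RNAs vary together was checked, since the sample names place both legs in 1 animal: deviations of paired RNAs correlated by -0.418, 0.00519, -0.189, -0.0468 and 0.337. No 2 RNAs were identical (correlations of 0.848 to 0.988). The comparison rests on 5 RNAs per group from 5 animals, and what limits its precision was not tested.

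Besides the members, the miRNAs named are the 3 most similar to each member, up to 2 of the brightest of each list, and the cell type markers; miR-21 is named as the 1 call. The members and lists were chosen with earlier results of these data known, as were the tests. The fit was tested on simulated data with independent noise for each RNA and changes larger than those fitted for the members. That simulation had no shared arrays or animals, so it does not cover the dependence between these RNAs. RefSeq tables (GRCr8) gave sequences and positions.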

Additional observations from a re-analysis of the deposited data

How the results depend on the processing

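No member passed the limma test in any of the 38 alternatives tested for miR-23a, miR-23b and miR-24 or the 37 for miR-27a and miR-27b. Their adjusted p ran over 0.105 to 0.908, 0.177 to 0.995, 0.148 to 0.995, 0.308 to 0.876 and 0.384 to 0.996. miR-23a came nearest without between-array normalization (0.71 log2, SE 0.28, adjusted p = 0.105), where the kept median rose to 0.28. With the replicate block (animal as a fixed effect) the members' adjusted p was 0.318, 0.938, 0.978, 0.584 and 0.942. The count of miRNAs past the threshold, 1 as reported, was 0 with that replicate block (smallest adjusted p 0.126, 13 at an unadjusted p under 0.05) and 1 with the animal as a random block, and no other call changed. The count was 2 with an offset of 0, median foreground, quantile normalization or all probes. It was 3 without background correction, with ratios only or without the dim filter, 4 with each RNA centred on the kept miRNAs or a trended robust prior, and 7 with separate channels. It was 0 with median centring, without between-array normalization, with the stricter filter, without controls 1 and 3, and from the deposited values, centred (an alternative chosen after seeing the data) or not. Leaving out 1 RNA or array gave 0 to 25, the 25 without control 4.

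Directions of the small differences were not stable, and the cause was not tested. miR-23a turned to -0.26 with ratios only and -0.14 on the 2 arrays with both groups, but stayed at 0.13 to 0.31 with 1 RNA or array left out. miR-23b turned to -0.011 (offset 0), -0.039 (median centring), -0.31 (ratios only), -0.0021 (separate channels), -0.091 (centred RNAs), -0.0059 (without controls 1 and 3) and -0.28 (2 arrays), with -0.031 to 0.092 under leave-one-out. miR-24 turned to -0.040 (offset 0), -0.062 (median centring), -0.25 (ratios only), -0.11 (centred RNAs), -0.14 (without controls 1 and 3) and -0.036 (2 arrays), with -0.11 to 0.12 under leave-one-out. miR-27a turned to 0.066 without between-array normalization and 0.11 with ratios only (-0.14 to -0.035 under leave-one-out). miR-27b turned to 0.24 without between-array normalization, 0.0098 with quantile normalization and 0.075 in the deposited values (-0.087 to 0.022 under leave-one-out). The members' median became 0.45 without between-array normalization, -0.25 with ratios only and 0.32 in the deposited values (-0.079 to 0.089 under leave-one-out). The stricter filter kept 32 miRNAs without miR-27a and miR-27b, so those have no value there. Both miR-27 probes are dim, which limits what their differences can show.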
